A study of Mus musculus with 2 samples.

Results

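The genes described here are 5 members of the mouse Ly6 family of surface proteins, Ly6a, Ly6c1, Ly6c2, Ly6e and Ly6i, chosen by name from the 27998 genes of the count matrices. Each was followed in T cells, dendritic cells, monocytes and macrophages taken from B16Ova melanoma grown in the flanks of female mice. The wildtype group (WT, E8i-cre-, Tcf7 FL/FL) and the knockout group (KO, E8i-cre+, Tcf7 FL/FL) both carried floxed Tcf7 alleles, and per the labels only the Cre differs. The Cre is known to act in CD8 T cells that have left the thymus, and Tcf7 encodes the transcription factor TCF1. Tumors were taken on day 13, 3 per group, and 7000 cells were loaded on 1 channel per group after equal mixing of 4 sorted categories, namely T cells with CD8, T cells with CD4, cells in a gate for dendritic cells, and remaining CD45+ cells. Labels give no animal age. None of the 5 members served in a sort gate, although the related protein Ly6G did.

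Each group is a single library that pools its tumors, so that no cell can be traced to its tumor. No difference between the groups therefore has a replicate check, and no p-value is given. Genotype cannot be told apart from any other difference between the libraries. The filters kept 983 WT cells (median 6168 UMIs) and 1083 KO cells (median 8117 UMIs), and 1 barcode occurred in both libraries. In CD8 T cells, Tcf7 stood at 160 CPM (a gene's UMIs per 1000000 UMIs of the class) in WT and 53.0 CPM in KO, a ratio of 0.331 (95% counting interval 0.258 to 0.421). Tcf7 of CD4 T cells stood at 125 and 87.5 CPM. Which exons the Cre removes is not stated in the labels, so a residual count does not measure intact transcript.

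Ly6 proteins are small, cysteine-rich and held on the outer cell membrane by a glycosylphosphatidylinositol (GPI) anchor. They are widely used as antibody targets for sorting mouse blood cells, and several of their genes are inducible by interferons. Ly6a encodes Sca-1, known from haematopoietic stem cells and from activated lymphocytes. Ly6c1 and Ly6c2 encode the 2 forms of the Ly6C antigen, whose high level marks classical monocytes and which memory CD8 T cells also carry. Ly6e encodes a broadly expressed member first described on thymocytes and later as a restriction factor for virus entry, and Ly6i encodes a less studied member found on myeloid cells.

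All 5 genes lie on chromosome 15 within 156920 bases (GRCm38, the assembly also called mm10; GENCODE M21). Ly6e occupies 74955051 to 74959905 on the plus strand. The other 4 are on the minus strand, Ly6i at 74979534 to 74983430, Ly6a at 74994877 to 74998031, Ly6c1 at 75044018 to 75048830 and Ly6c2 at 75108158 to 75111970. All are annotated as protein coding, and the matrix identifiers of all 5 matched that annotation. Counts are of whole genes, so that exons, introns and UTRs are not distinguished in any value below.

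Ly6c1 and Ly6c2 are close paralogs, and their sequences bear on how far their counts can be separated. Of the distinct 50-base stretches of annotated Ly6c1 transcripts, 21.5% also occur in Ly6c2 transcripts and 11.1% in Ly6a transcripts. For Ly6c2, 13.9% occur in Ly6c1. Ly6a shares 19.0% and Ly6i 4.76% of such stretches with any other gene, and Ly6e shares none. Whether reads from the shared stretches were dropped or assigned and which transcript end was sequenced are not stated in the labels, so the split of UMIs between Ly6c1 and Ly6c2 is uncertain. The 2 genes also have related sequence upstream. Of the 5 members, 2 have promoter windows in the RefSeq table (GRCm38.p6), and their 300-base windows aligned with 62.9% identical columns. The bases upstream of the outermost annotated start are shown because these neighbours were highest in different classes of cells, as described below. Capitals mark bases that lie in a run of at least 10 bases found in both stretches, and runs that overlap or touch are joined in the capitals.
Ly6c1, chr15:75048921-75049087, minus strand: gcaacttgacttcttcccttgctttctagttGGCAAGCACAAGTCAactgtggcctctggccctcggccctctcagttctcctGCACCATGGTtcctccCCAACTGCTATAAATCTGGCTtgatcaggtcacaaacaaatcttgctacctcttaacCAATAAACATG
Ly6c2, chr15:75112067-75112221, minus strand: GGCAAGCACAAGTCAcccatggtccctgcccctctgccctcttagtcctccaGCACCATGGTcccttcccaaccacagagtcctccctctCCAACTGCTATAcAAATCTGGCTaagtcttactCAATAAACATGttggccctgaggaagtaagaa
The shared runs cover 57 of 167 bases for Ly6c1 and 58 of 155 bases for Ly6c2, and the longest single run found in both is 15 bases. Motifs were searched on both strands of the 300-base windows, without requiring that matches be apart from each other. Neither the interferon-stimulated response element written as GAAA, any 2 bases and GAAA, nor the interferon gamma activated site written as TTCNNNGAA was matched in any of the 4 windows. These letters occur in 3.44% and 8.30% of all 32851 windows of the table. The TCF core CTTTG was matched in 1 window of each gene and occurs in 53.9% of all windows. A match or its absence describes these letters in these windows only.

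Against this background, the members differed between the libraries mostly in myeloid and dendritic cells and mostly toward KO, by the limits that follow. Most of the 7 classes compared are themselves myeloid or dendritic. Among these 7, only cDC1s and macrophages had more than 1 member past the limits in the same direction. Of the T cell subsets, regulatory CD4 T cells had Ly6a, Ly6c1 and Ly6c2 higher, the latter 2 from few UMIs. Among classes with few cells, plasmacytoid DCs had Ly6a and Ly6i higher, and T cells with both co-receptor transcripts had Ly6a and Ly6c2 higher. A member was counted as higher or lower where the ratio of KO to WT CPM was at least 1.5-fold, its exact conditional 95% interval excluded 1, and the level reached 50 CPM in 1 library. These intervals cover counting error only, and single cells of 1 library are not independent samples of a genotype. Over 7 classes, 24 combinations of member and class reached 50 CPM, of which 9 were higher and 1 was lower in KO. In CD8 T cells, 0 of 3 members passed in either direction, beside 6.88% of all genes higher and 5.45% lower. In CD4 T cells, 1 of 3 was higher, beside 5.39% of genes higher and 5.59% lower. A single call among so few members is not distinct from these shares of all genes.

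In type 1 conventional dendritic cells (cDC1s), 2 of 3 members were higher, where 1.73% of genes were higher and 2.67% lower. In type 2 conventional dendritic cells (cDC2s), 1 of 4 was higher, beside 5.86% of genes higher and 5.72% lower. In mature dendritic cells (mature DCs), 1 of 3 was higher and 1 lower, beside 4.28% and 4.75% of genes. Mature DCs were thus the only class with a member called in each direction. Among monocytes, 1 of 4 members was higher, beside 3.82% of genes higher and 6.18% lower. In macrophages, 3 of 4 were higher, beside 5.79% of genes higher and 6.55% lower. The single calls per direction in cDC2s, mature DCs and monocytes are likewise not distinct from these shares of all genes. The median log2 ratio of the measured members was 1.25 in macrophages and 0.94 in cDC1s, while the medians of all genes tested there were -0.02 and 0.03. For CD8 T cells the same medians were 0.03 for the members and 0.09 for all genes.

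**Figure D1:**
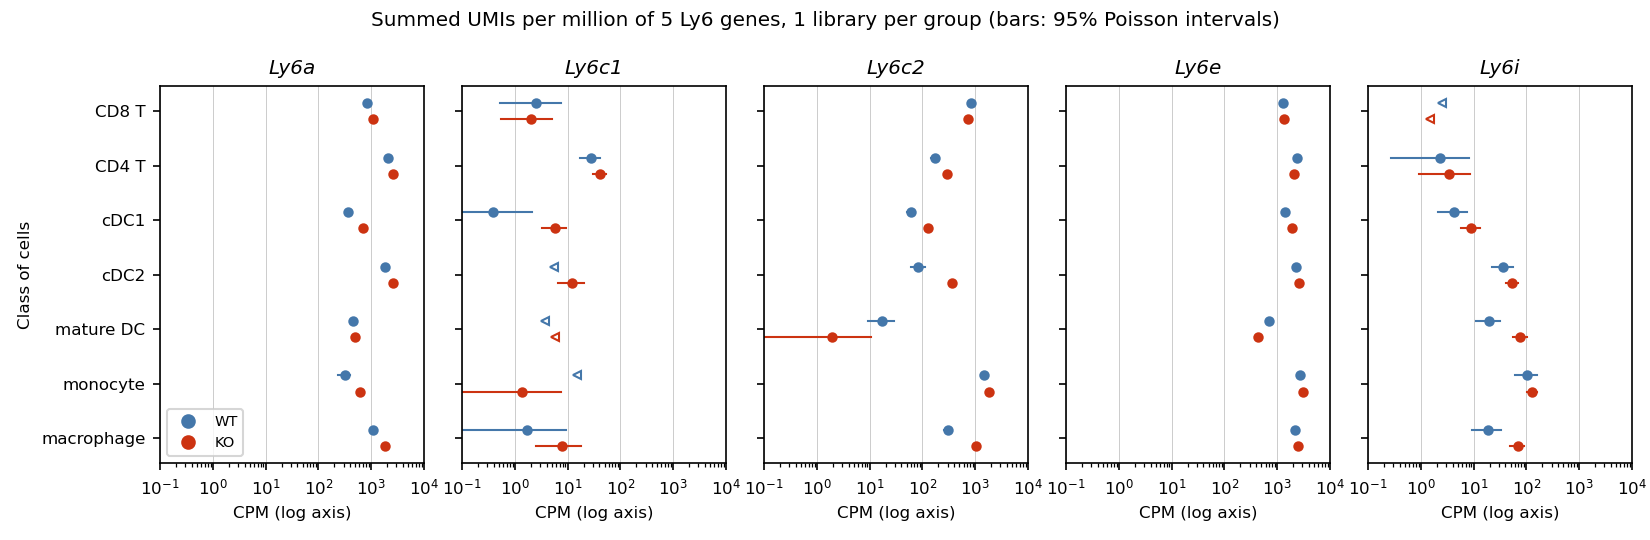
Level of each Ly6 gene (CPM, log axis) in 7 classes of cells, WT in blue and KO in red, 1 library each. Bars are exact 95% Poisson intervals, and open triangles mark the level of 3 UMIs where none was counted. Ly6e lay above 400 CPM in every class and library, Ly6c1 was highest in CD4 T cells at 27.1 and 40.8 CPM, and Ly6c2 was highest in monocytes at 1478 and 1860 CPM.

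Ly6a was the member whose ratio lay above 1 in all 7 classes, with log2 ratios from 0.14 in mature DCs to 0.99 in monocytes. Its interval excluded 1 in 6 of them, and 3 of them passed 1.5-fold. In WT the level ran in order from CD4 T cells (2064 CPM) through cDC2s (1822), macrophages (1099), CD8 T cells (834), mature DCs (451) and cDC1s (359) to monocytes (313). Only cDC1s and monocytes had overlapping intervals among WT neighbours. In KO the order began with cDC2s (2611 CPM) and CD4 T cells (2549), whose intervals overlapped, then macrophages (1853), CD8 T cells (1070), cDC1s (688), monocytes (621) and mature DCs (497). Mature DCs thus stood above cDC1s and monocytes in WT and last in KO. Single cells held 121 of their 368 WT UMIs and 136 of their 259 KO UMIs, so their place in either order is uncertain.

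In macrophages, Ly6a stood at 1099 CPM in WT (658 UMIs, 66 cells) and 1853 CPM in KO (1196 UMIs, 62 cells), a ratio of 1.69 (1.53 to 1.86). The excess was also seen in the number of positive cells. With each cell thinned to 2000 UMIs, 56.0% of WT and 84.6% of KO macrophages held a Ly6a UMI, a difference of 28.6 percentage points (9.71 to 45.6). At full depth 54.5% and 85.5% of them did. As a reference for free RNA, Ly6a UMIs were found in 0 of 20 WT melanoma cells, which by the limit of 3 cells allows a share of up to 15%, and in 2 of 13 KO melanoma cells, at median depths of 962 and 1983 UMIs. Both macrophage clusters showed the difference, 1120 and 1898 CPM in the cluster led by Ccl7 and Ccl12, and 873 and 1361 CPM in the cluster led by Ccl8 and C1qa.

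In cDC1s, which cross-present antigen to CD8 T cells, Ly6a stood at 359 CPM in WT (161 cells) and 688 CPM in KO (172 cells), a ratio of 1.91 (1.77 to 2.07). After thinning, 22.0% of WT and 38.2% of KO cDC1s had a UMI, 16.2 percentage points apart (5.91 to 26.1). Without thinning it was 52.8% and 69.2%. The level depended strongly on the kind of cDC1. The cluster whose leading genes included Ifi205, Cxcl9 and Irf7, all known as interferon-inducible, held 545 CPM in WT and 1224 CPM in KO. The cluster led by Ppt1 and Cst3 held 138 and 213 CPM. That first cluster made up 18.6% of WT and 29.1% of KO cDC1s, so the class ratio includes this difference in makeup, and within the 2 clusters the ratios were 2.25 (1.96 to 2.58) and 1.54 (1.27 to 1.88). Among cDC1s with few cycling transcripts the levels were 238 and 619 CPM, and among cycling cDC1s they were 709 and 850 CPM, a ratio of 1.20 (1.07 to 1.35).

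**Figure D2:**
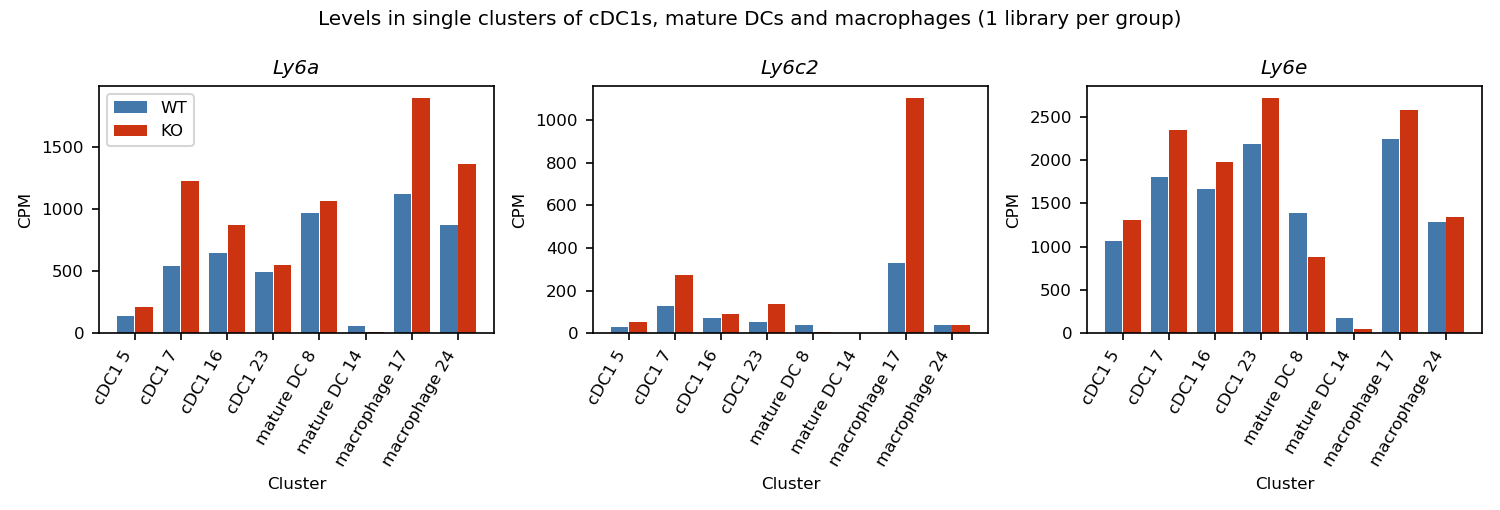
Level (CPM, bars from 0) of Ly6a, Ly6c2 and Ly6e in each cluster of cDC1s, mature DCs and macrophages, with cluster numbers after the class name, WT in blue and KO in red, 1 library per group and no error drawn. Ly6a was highest among cDC1 clusters in KO cells of cluster 7 (1224 CPM), and Ly6c2 in macrophages lay almost wholly in cluster 17 (329 and 1103 CPM).

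Monocytes had the largest class ratio of Ly6a, 313 CPM in WT and 621 CPM in KO (1.99, 1.52 to 2.64), but rested on few cells and molecules. The WT value came from 62 UMIs in 22 cells and the KO value from 456 UMIs in 74 cells. With Leiden clustering at resolution 1 or 1.5, which placed 31 WT and 88 KO cells in the class, the levels were 455 and 667 CPM and the log2 ratio fell below 1.5-fold, at 0.55. Monocytes also carried T cell transcripts unequally: 5 of 5 T cell markers were detected in both libraries, summing to 439 CPM in WT and 225 CPM in KO. Without the 4 WT and 12 KO monocytes that held at least 2 UMIs of those markers, 9 and 264 Ly6a UMIs remained in 18 and 62 cells, and the log2 ratio was 2.93. The thinned shares of 23.8% and 29.7% differed by less than their interval (-19.5 to 25.4 points).

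The other classes showed smaller Ly6a differences. In cDC2s, the levels were 1822 and 2611 CPM, a ratio of 1.43 (1.33 to 1.54). CD8 T cells, in which the Cre is active, held 834 CPM (993 UMIs, 167 cells) and 1070 CPM (2158 UMIs, 183 cells), a ratio of 1.28 (1.19 to 1.38). CD4 T cells held 2064 and 2549 CPM, a ratio of 1.23 (1.16 to 1.31). These 3 classes stayed under 1.5-fold although their intervals excluded 1. In mature DCs, the levels of 451 and 497 CPM did not differ beyond counting error (1.10, 0.936 to 1.29), and 121 of 368 WT UMIs and 136 of 259 KO UMIs came from a single cell in each library. Ly6a of mature DCs lay almost entirely in the cluster led by Il4i1 and Fabp5 (972 and 1069 CPM), and the larger cluster led by Fscn1 and Ccr7 held 62.1 and 7.12 CPM.

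Within T cells, Ly6a tracked the subset more than the library. Subsets were gated on marker transcripts other than the members. Naive-like CD8 T cells held 401 and 403 CPM (40 WT and 36 KO cells), a ratio of 1.01 (0.702 to 1.44). Gzmk-positive CD8 T cells held 1066 and 1135 CPM, and cytotoxic CD8 T cells (a Gzmb or Prf1 UMI and no Gzmk UMI) held 880 and 1203 CPM (1.37, 1.18 to 1.59). Antigen-experienced CD8 subsets thus held more Ly6a than naive-like cells in both libraries. Naive-like CD4 T cells held 827 and 701 CPM, and conventional CD4 T cells held 1853 and 2381 CPM. Regulatory CD4 T cells, gated on a Foxp3 UMI, held 2794 CPM in WT (50 cells) and 4440 CPM in KO (26 cells), a ratio of 1.59 (1.44 to 1.75), the only subset with at least 20 cells in both libraries past 1.5-fold for this gene. All thinned KO regulatory cells and 91.7% of thinned WT regulatory cells had a Ly6a UMI.

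**Figure D3:**
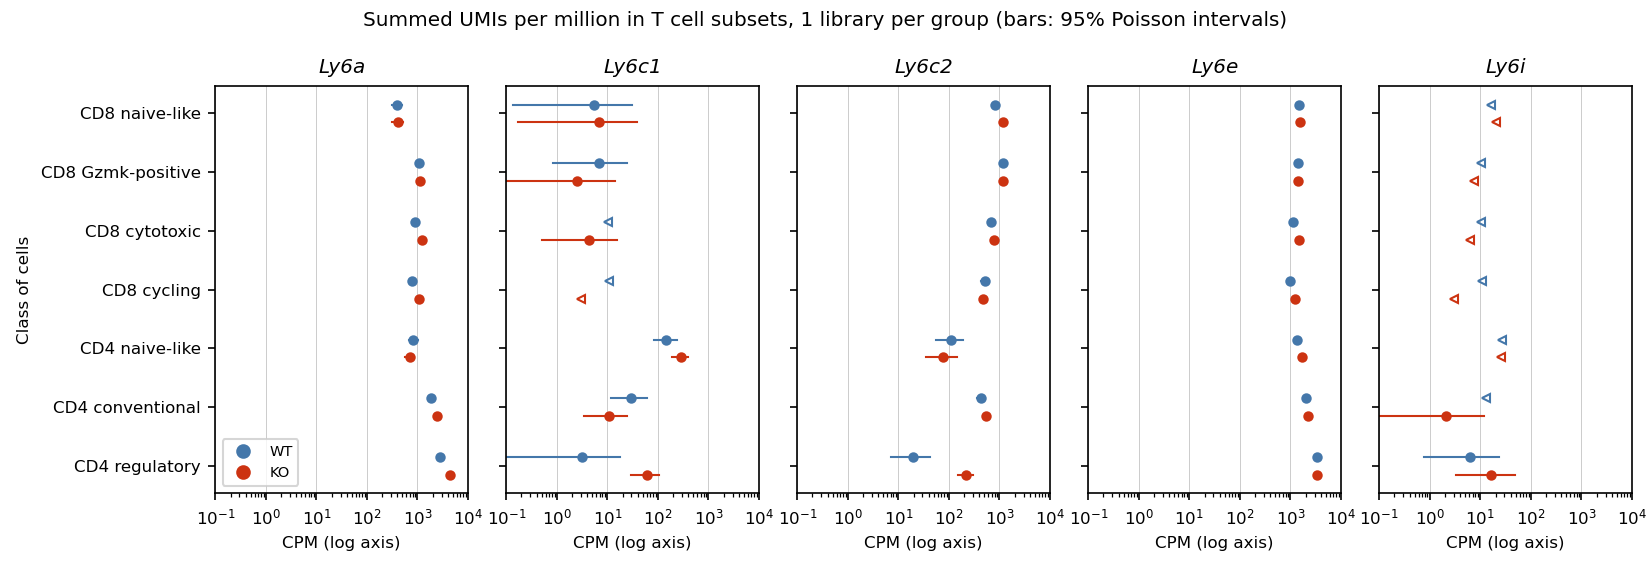
Level of each Ly6 gene (CPM, log axis) in T cell subsets, WT in blue and KO in red, 1 library each, with exact 95% Poisson intervals and open triangles at 3 UMIs where none was counted. Ly6a ran from naive-like CD8 T cells (401 and 403 CPM) to regulatory CD4 T cells (2794 and 4440 CPM), and Ly6c2 was high in CD8 subsets and low in regulatory and naive-like CD4 T cells.

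Ly6e was the most evenly expressed member, and no class had it 1.5-fold higher in KO. Among the 7 classes it was highest in monocytes, at 2663 CPM in WT and 3046 CPM in KO (1.14, 1.04 to 1.26), and lowest in mature DCs. CD4 T cells (2348 and 2122 CPM), cDC2s (2291 and 2567) and macrophages (2162 and 2473) lay close below monocytes. In WT the intervals of monocytes, CD4 T cells, cDC2s and macrophages overlapped from each neighbour to the next. Levels in cDC1s were 1426 and 1877 CPM (1.32, 1.26 to 1.37), and those in CD8 T cells were 1308 and 1336 CPM, which did not differ beyond counting error (1.02, 0.960 to 1.09). For CD4 T cells the ratio of 0.904 (0.853 to 0.958) has no stable direction, since grouping T cells by cluster instead of by gate gave a log2 ratio of 0.19. Regulatory CD4 T cells had the highest T cell level, 3413 and 3369 CPM, and naive-like CD4 T cells held 1358 and 1692 CPM.

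Mature DCs, the migratory CCR7-positive state, were the exception for Ly6e. The level was 695 CPM in WT (567 UMIs, 98 cells) and 435 CPM in KO (227 UMIs, 60 cells), a ratio of 0.627 (0.535 to 0.732). Both clusters of the class were lower in KO, from 1385 to 882 CPM in the cluster led by Il4i1 and from 180 to 53.4 CPM in the cluster led by Fscn1. The makeup of the class was similar, the Il4i1 cluster being 33.7% of WT and 36.7% of KO cells. When the CPM of each cell was averaged instead of summed, the log2 ratio was -0.53, under 1.5-fold. T cell markers summed to 104 CPM in WT and 5.75 CPM in KO mature DCs, with 2 of the 5 (Cd3e and Cd2) at 0 in KO, and the part of this in the Ly6e difference was not tested beyond leaving out the 3 WT and 1 KO cells with at least 2 such UMIs, which kept the call. Monocyte markers summed to 587 CPM in WT (3 of 8 detected) and 213 CPM in KO (5 of 8), and cDC1 markers to 540 CPM (6 of 7) and 992 CPM (7 of 7), and their part was not tested.

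Ly6c2 separated the classes most sharply. In WT the order was monocytes (1478 CPM), CD8 T cells (815), macrophages (304), CD4 T cells (171), cDC2s (82.0), cDC1s (60.8) and mature DCs (17.2), and only cDC2s and cDC1s overlapped among neighbours. In KO, macrophages (1015 CPM) lay above CD8 T cells (736) and below monocytes (1860). Mature DCs had 14 UMIs in WT and 1 UMI in KO, which is too few for a call. No neighbours overlapped in KO.

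Ly6c2 in macrophages differed past 1.5-fold in every alternative tried. The level was 304 CPM in WT (182 UMIs, 66 cells) and 1015 CPM in KO (655 UMIs, 62 cells), a ratio of 3.34 (2.83 to 3.96), and the log2 ratio ranged from 1.65 to 1.93 over 10 alternatives. In KO, 134 of the 655 UMIs came from 1 cell. After thinning, 26.0% of WT and 40.4% of KO macrophages had a UMI, a difference of 14.4 points whose interval included 0 (-5.23 to 32.8). Unthinned shares were 30.3% and 53.2%. The UMIs lay in the cluster led by Ccl7 (329 and 1103 CPM), whereas the cluster led by Ccl8 had 2 UMIs in each library. The summed macrophage markers stood at 6966 CPM in WT and 9421 CPM in KO with 9 of 9 detected, and the summed monocyte markers at 1731 and 2305 CPM with 8 of 8 detected. T cell markers summed to 787 and 679 CPM there with 5 of 5 detected, and neutrophil markers to 862 CPM (6 of 6 detected) and 841 CPM (5 of 6, Retnlg at 0). The part of these other transcripts in the macrophage results was not tested further, while without the 14 WT and 10 KO macrophages with at least 2 T cell marker UMIs the Ly6a log2 ratio was 0.94.

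Levels of Ly6c2 in cDC1s and cDC2s were low, and higher in KO. In cDC1s the level was 60.8 CPM in WT (159 UMIs) and 130 CPM in KO (364 UMIs), a ratio of 2.13 (1.77 to 2.59), and the 10 alternatives gave log2 ratios of 0.66 to 1.25. The thinned shares of 10.7% and 17.6% had a difference interval that included 0 (-1.03 to 14.8 points), and the unthinned shares were 25.5% and 43.0%. In cDC2s the level was 82.0 CPM in WT (45 UMIs in 38 cells, 20 of them in 1 cell) and 362 CPM in KO (423 UMIs in 79 cells). This cDC2 ratio of 4.42 (3.24 to 6.15) depended on how the class was drawn. At resolutions 1 and 1.5 the log2 ratio was 0.25 and 0.23 against 2.14 at resolution 2. At resolution 1 the class grew to 67 WT and 115 KO cells, of which 17 and 12 were plasmacytoid DCs at resolution 2 (1250 and 1534 CPM of Ly6c2) and 11 and 23 were unnamed there. Their separate parts in the shift were not tested. Monocyte markers in cDC2s summed to 2311 CPM in WT (6 of 8 detected, Chil3 and Vcan at 0) and 2607 CPM in KO (8 of 8). Macrophage markers summed to 87.5 CPM in WT (7 of 9) and 299 CPM in KO (8 of 9), and cDC1 markers to 439 and 796 CPM (6 of 7 in each). The part of these 3 lists was not tested. The cDC2 log2 ratio was also 0.39 as a mean over cells and 0.47 after thinning, both under 1.5-fold. The size of this difference is therefore not settled by these files.

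Ly6c2 of CD8 T cells showed no stable direction. The levels were 815 CPM in WT (971 UMIs) and 736 CPM in KO (1484 UMIs), a ratio of 0.902 (0.831 to 0.979), and the thinned share with a UMI was 51.6% in WT and 63.3% in KO in the draw used here, but 56.7% and 60.1% as the average over all draws. Without cycling cells the log2 ratio was 0.11 in place of -0.15. The makeup of the class differed between the libraries, with the cluster led by Ccl5 and Cd8b1 holding 41.3% of WT and 20.2% of KO CD8 T cells, and the cluster led by histone genes such as Hist1h2ap holding 11.4% and 27.3%. Among the CD8 T cells of the former, Ly6c2 stood at 1617 and 2238 CPM (1.38, 1.20 to 1.59), and among those of the clusters led by Cd8b1 and Klf2 and by Prf1 and Xcl1 the ratios were 1.17 (0.957 to 1.44) and 1.42 (1.14 to 1.78). The class ratio thus lay below 1 while the ratios within these 3 clusters, the ones with at least 20 CD8 T cells in both libraries, lay above it. The cluster led by histone genes fell just under that limit, with 19 WT and 50 KO CD8 T cells. Over all T cells of that cluster, Ly6c2 stood at 337 and 323 CPM (0.958, 0.814 to 1.13). Cycling CD8 T cells, of which 15 were WT and 42 KO, held less than the other 3 subsets given here, 506 and 472 CPM. Gzmk-positive cells held 1195 and 1166 CPM, cytotoxic cells 693 and 767 CPM, and naive-like cells 834 and 1188 CPM (1.42, 1.14 to 1.78). No CD8 subset with at least 20 cells in both libraries therefore passed 1.5-fold. Antigen-presenting cell markers summed to 925 CPM in WT and 453 CPM in KO CD8 T cells, and leaving out T cells with over 0.5% of such UMIs is among the alternatives that kept the CD8 values.

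In CD4 T cells Ly6c2 was 171 CPM in WT (151 UMIs) and 292 CPM in KO (351 UMIs), a ratio of 1.72 (1.41 to 2.09). A single WT cell held 73 of the 151 UMIs, and without the top cell of each library the log2 ratio was 1.61 in place of 0.78. At resolutions 1 and 1.5 it was 0.53, under 1.5-fold. Makeup differed here too, since 50 of 140 WT but 26 of 155 KO cells were regulatory, and 49 WT and 80 KO cells were conventional. Clusters with at least 20 CD4 T cells in both libraries were also looked at singly. In the cluster led by Il7r and Lat, Ly6c2 stood at 97.0 and 648 CPM (6.69, 3.89 to 12.3). In the cluster led by Ctla4 and Tnfrsf4 it stood at 18.3 and 182 CPM (9.97, 4.45 to 26.3), from 7 and 43 UMIs. The cluster led by Igfbp4 and Lef1 had 0 UMIs in both libraries. The part of makeup in the class ratio was not tested. Monocyte markers in CD4 T cells summed to 244 CPM in WT (3 of 8 detected) and 402 CPM in KO (8 of 8). Macrophage markers went the other way, at 27.1 CPM (6 of 9) and 7.50 CPM (5 of 9). The part of these transcripts in the Ly6c2 difference was not tested. After thinning, 8.46% of WT and 18.2% of KO CD4 T cells had a UMI, a difference of 9.78 points (1.27 to 18.1). The positive cells were thus a minority in both libraries. Regulatory CD4 T cells had 6 UMIs in WT and 40 in KO (19.0 and 216 CPM), a ratio of 11.4 with a wide interval (4.78 to 32.8), and conventional CD4 T cells held 432 and 535 CPM (1.24, 0.980 to 1.57). Of the 102 WT UMIs of conventional cells, 73 came from 1 cell. Without the top cell of each library their log2 ratio was 1.97. The unthinned shares of conventional cells with a UMI were 14.3% and 31.3%.

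**Figure D4:**
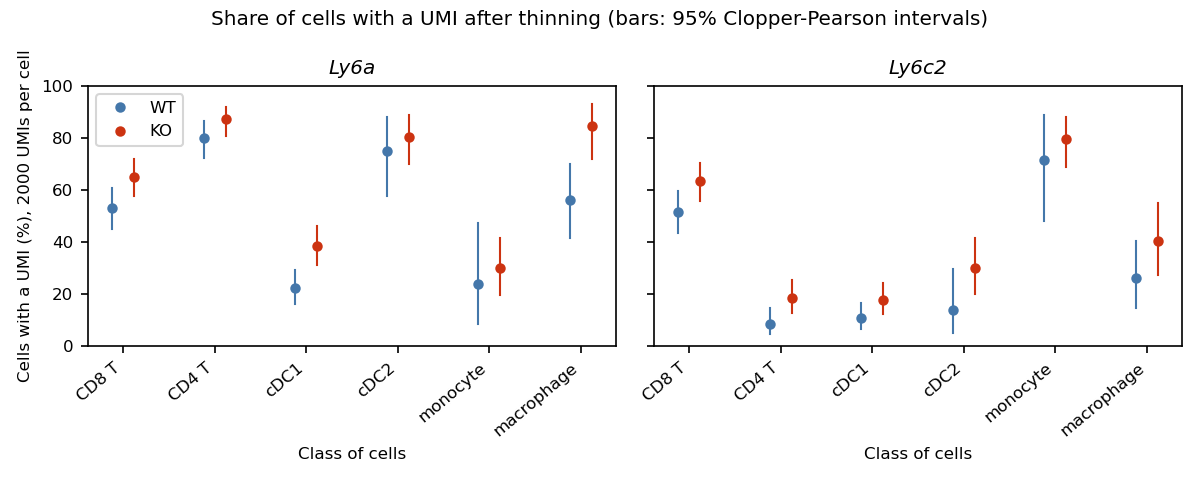
Share of cells (%) with at least 1 UMI of Ly6a or Ly6c2 after thinning each cell to 2000 UMIs, WT in blue and KO in red, with 95% Clopper-Pearson intervals, 1 library per group. The widest gap was Ly6a in macrophages, 56.0% in WT and 84.6% in KO.

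In cDC1s, Ly6c2 UMIs were found at a higher share among cells with Ly6a than among cells without it, and KO CD8 T cells showed no such gap. Among thinned KO cDC1s, 33.8% of Ly6a-positive and 7.62% of Ly6a-negative cells had a Ly6c2 UMI, and in WT cDC1s the values were 22.9% and 7.26%. WT CD8 T cells gave 59.0% and 43.2%, and KO CD8 T cells gave 63.5% and 62.9%. The gap was not particular to cDC1s, since WT macrophages gave 39.3% and 9.09%, though KO macrophages gave 40.9% and 37.5%. WT cDC2s (11.1% and 22.2%) and WT monocytes (60% and 75%) went the other way. Several of these shares rest on few cells. Of 36 WT cDC2s, 27 had Ly6a, 5 had Ly6c2 and 3 had both. Of 21 WT monocytes, 5 had Ly6a, 15 had Ly6c2 and 3 had both. Of 50 WT macrophages, 28 had Ly6a, 13 had Ly6c2 and 11 had both. Of 52 KO macrophages, 44 had Ly6a, 21 had Ly6c2 and 18 had both. KO cDC2s gave 30.6% and 26.7%, and KO monocytes 81.8% and 78.8%. Of KO CD4 T cells, all 27 with a Ly6c2 UMI also had a Ly6a UMI, among 129 of 148 cells that had one. These shares describe cells of 1 library each and carry no test.

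Ly6c1 was found mainly in CD4 T cells and in T cells without either co-receptor transcript (40.9 and 74.5 CPM), unlike its paralog. CD4 T cells had 24 UMIs in WT (27.1 CPM) and 49 in KO (40.8 CPM), a ratio of 1.51 (0.907 to 2.57) that did not differ from 1 beyond counting error. CD8 T cells had 3 and 4 UMIs against 971 and 1484 of Ly6c2. Most CD4 molecules came from naive-like CD4 T cells, 16 UMIs in WT (144 CPM, 30 cells) and 33 UMIs in KO (282 CPM, 32 cells), a ratio of 1.96 (1.05 to 3.81). Regulatory CD4 T cells had 1 and 11 Ly6c1 UMIs, 8 of the 11 in 1 cell. In naive-like CD4 T cells Ly6c2 had 12 and 9 UMIs, 10 and 8 of them in single cells. The 2 Ly6C genes thus differed in the T cell subsets where they were highest, with the limit that shared sequence sets on their counts. Both were counted in T cells without either co-receptor transcript, where Ly6c2 stood at 142 and 331 CPM. Whether single cells held both was not tested. Monocytes had 0 and 1 Ly6c1 UMIs, mature DCs had none in either library, where 3 UMIs would have been 3.68 and 5.75 CPM, and macrophages had 1 and 5. In cDC2s, 0 WT and 14 KO UMIs were counted, at least 2.19-fold higher in KO with WT set at 3 UMIs, and 7 of the 14 came from 1 cell. In cDC1s, 1 and 16 UMIs were counted, a ratio of 14.9 with an interval from 2.32 to 625, and 10 of the 16 came from 1 cell.

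Ly6i was a low myeloid transcript. Among the 7 classes it was highest in monocytes, 101 CPM in WT (20 UMIs) and 128 CPM in KO (94 UMIs). These levels did not differ beyond counting error (1.27, 0.778 to 2.17). CD8 T cells had 0 UMIs in both libraries, where 3 UMIs would have been 2.52 and 1.49 CPM. CD4 T cells had 2 and 4 UMIs and cDC1s 11 and 25. In macrophages the level was 18.4 CPM in WT (11 UMIs) and 68.2 CPM in KO (44 UMIs), a ratio of 3.71 (1.89 to 7.97), and all of these UMIs lay in the cluster led by Ccl7. All 10 alternatives kept this ratio past 1.5-fold, with log2 values from 1.88 to 2.78. In mature DCs it was 19.6 and 76.7 CPM (16 and 40 UMIs), a ratio of 3.91 (2.14 to 7.48), but 22 of the 40 KO UMIs came from 1 cell. In cDC2s it was 36.4 and 53.9 CPM (1.48, 0.883 to 2.58), and the log2 ratio ran from -0.88 to 0.99 over the alternatives, so that no direction is given.

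**Figure D5:**
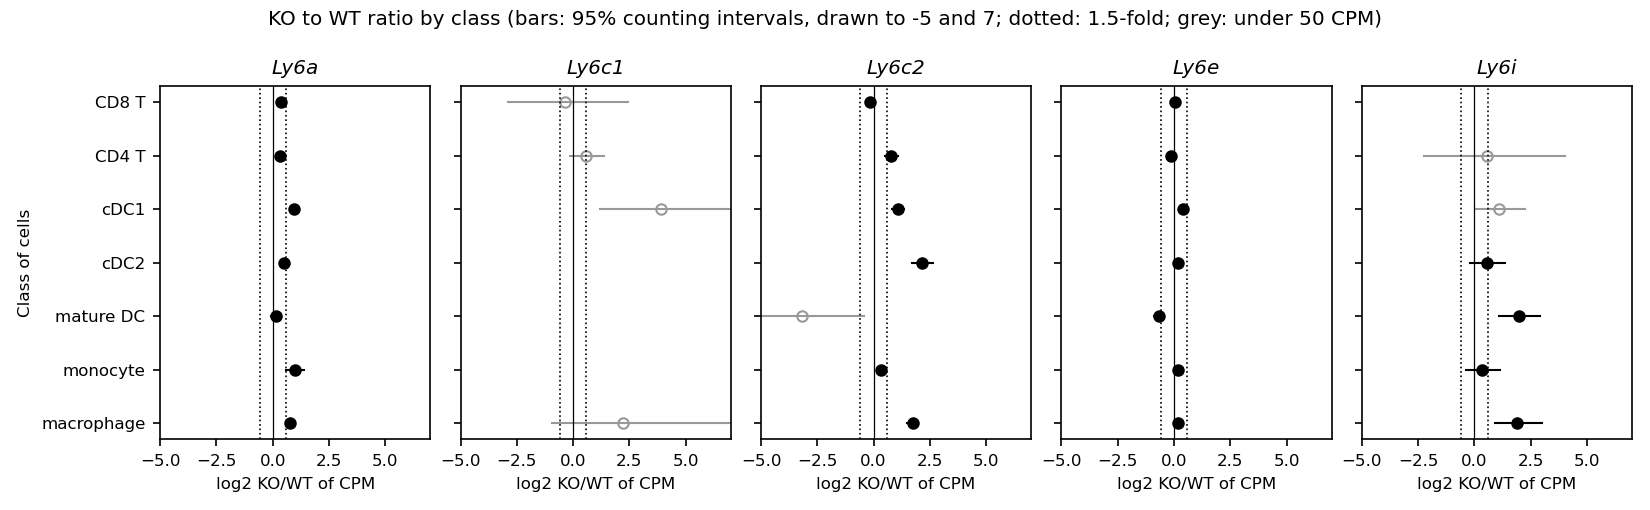
The log2 ratio of KO to WT CPM (0 is no difference, dotted lines 1.5-fold) for each Ly6 gene in 7 classes, 1 library per group, with exact 95% counting intervals cut at the axis limits; open grey points lay under 50 CPM in both libraries, and classes with no ratio are blank. Ly6a lay right of 0 in all classes, while the filled point of Ly6e in mature DCs lay left of the 1.5-fold line (-0.67).

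Other Ly6 and uPAR family genes were mostly at the limit of detection in the 7 classes. Of 26 relatives on the list, only Plaur, the urokinase receptor, and Cd177, a neutrophil surface protein, reached 50 CPM in any of the 7 classes. Plaur stood at 469 and 489 CPM in monocytes (1.04, 0.828 to 1.33), 252 and 240 CPM in macrophages, and 100 and 81.3 CPM in cDC2s. Cd177 stood at 141 and 117 CPM in monocytes. None of these relatives was counted as higher or lower in the 7 classes. Outside them, the relative Ly6d stood at 353 and 1295 CPM in plasmacytoid DCs (70 and 190 UMIs). In B cells it stood at 2078 and 991 CPM (42 and 38 UMIs). Genes that build and attach the GPI anchor had 3 to 7 members measured per class, and 0 of them were counted as higher or lower in any class. Their median log2 ratio was -0.33 in CD4 T cells, -0.39 in monocytes and -0.31 in macrophages, beside -0.01, -0.06 and -0.02 for all genes. Some ratios lay past 1.5-fold with intervals that included 1, such as 0.502 for Pigs in monocytes (0.253 to 1.04).

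Since several members are known as interferon-inducible, lists of interferon-response genes were set beside them. Of the type I interferon list, 9 of 18 measured genes were higher and 0 lower in CD4 T cells, 8 of 16 and 0 in cDC1s, 9 of 23 and 0 in cDC2s, 10 of 23 and 0 in monocytes, and 4 of 23 and 0 in macrophages. Mature DCs had 1 of 20 higher and 4 lower, and CD8 T cells had 0 of 14 higher and 2 lower. In monocytes, Ifit3 stood at 187 and 729 CPM (3.91, 2.80 to 5.61), Ifit1 at 222 and 563 CPM, and Oasl1 at 55.5 and 161 CPM. In macrophages, Ifit1 stood at 137 and 297 CPM, Ifi27l2a at 3653 and 5852 CPM, and Cmpk2 at 56.8 and 116 CPM. CD8 T cells had Ifit3 at 122 and 69.9 CPM (0.574, 0.452 to 0.729), Ifit1 at 108 and 68.4 CPM, and Ifi27l2a at 1562 and 2267 CPM (1.45, 1.37 to 1.53).

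The interferon gamma list had 0 genes lower in any class. It had 0 of 15 measured genes higher in CD8 T cells, 1 of 17 in CD4 T cells, 7 of 17 in cDC1s, 12 of 23 in cDC2s, 9 of 19 in mature DCs, 5 of 22 in monocytes and 6 of 20 in macrophages. The shares of all genes called are those given with the type I list. Median log2 ratios of this list were 0.36 in macrophages, 0.25 in cDC1s and 0.09 in CD8 T cells, beside -0.02, 0.03 and 0.09 for all genes tested. They were 0.59 in cDC2s, 0.44 in mature DCs, 0.36 in monocytes and -0.01 in CD4 T cells. For all genes tested there they were -0.003, 0.01, -0.06 and -0.01. Cxcl10, a chemokine that draws T cells, stood at 139 and 590 CPM in macrophages (4.26, 3.35 to 5.47) and at 908 and 2245 CPM in monocytes. Iigp1, an interferon-inducible GTPase, stood at 36.8 and 155 CPM in macrophages. The CD8 T cell ratios with intervals farthest from 1 were those of Psmb9, Irf1 and Psmb8, at 1.31, 0.739 and 1.15. Whether the members move with either list cell by cell was not tested.

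The genes whose levels were most like those of each member were found over 11 classes that share no cells, WT and KO as separate points (22 points), by Pearson correlation of log2(CPM + 10) among 5304 genes. Libraries, depth and class are shared between points, so the values are descriptions. For Ly6a these were Il12rb1 (0.81), Ndufv3 (0.80) and Denr (0.80), and for Ly6e Fxyd5 (0.86), Fermt3 (0.86) and Slfn8 (0.84). For Ly6c2 they were Ggct (0.83), Atp8b4 (0.81) and Gm4955 (0.79), for Ly6c1 Rcbtb1 (0.84), Trat1 (0.82) and Men1 (0.81), and for Ly6i Il13ra1 (0.94), Mcemp1 (0.94) and Dram1 (0.94). Members were left out of this search, and the closest pair of members was Ly6a with Ly6e (0.54). Ly6c1 and Ly6c2 had a correlation of -0.11, and Ly6a and Ly6c2 of 0.01.

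Classes with too few cells for the comparison held members too. Natural killer cells (19 WT and 27 KO cells) had Ly6c2 at 1519 and 1242 CPM and Ly6a at 161 and 246 CPM. Plasmacytoid DCs (17 and 12 cells) had Ly6a at 1320 and 3347 CPM and Ly6e at 2585 and 2925 CPM. Their Ly6i stood at 35.3 and 170 CPM, from 7 and 25 UMIs, 20 of the 25 in 1 cell. B cells (7 and 9 cells) had Ly6a at 445 and 2425 CPM, from 9 and 93 UMIs, and Ly6e at 4156 and 3754 CPM, from 84 and 144 UMIs. Melanoma cells (20 and 13 cells) had 38 Ly6e UMIs in WT, all in 1 cell, and 2 in KO. T cells with neither co-receptor transcript (100 and 120 cells), which the gates left out of both T cell classes, had Ly6a at 1712 and 1936 CPM and Ly6c2 at 142 and 331 CPM (2.33, 1.70 to 3.24).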

How the data were processed

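Droplet single-cell RNA-seq of tumor immune cells gave 1 matrix per group. The authors deposited raw UMI counts per gene and cell, whole numbers per the file headers and values, totalling 9283014 in WT (1120 barcodes) and 11758449 in KO (1219 barcodes). The submitters' processing notes name Cell Ranger 1.3 and mm10, and the header of each matrix gives software 3.0.2; the annotation release, the chemistry and any doublet removal are not given in the sources used here.

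Cells were kept with at least 500 UMIs, 300 genes and at most 10% mitochondrial UMIs, which left out 132 WT and 133 KO barcodes. Scrublet, with an expected rate of 6%, called 5 WT and 3 KO barcodes, which were left out, and doublets may remain. Libraries were clustered together in scanpy 1.11.5 (2000 variable genes, 30 components, 15 neighbours), with the 5 genes, Tcf7, antigen receptor segments and mitochondrial genes kept out of the variable genes. Leiden resolutions of 1, 1.5 and 2 were run and the levels of the 5 genes were seen under each; 2, which gave 26 clusters, was kept of the 3 because 1 and 1.5 merged plasmacytoid DCs with cDC2s. Clusters were named where at least 3 markers of a set were detected in at least 25% of cells. Rules for clusters carrying markers of several classes were set after the clusters were seen, and one of them after a first naming. The 110 WT and 98 KO cells of 4 clusters stayed unnamed, among them a shallow T cell marker cluster and a cluster with T cell and cDC1 markers together. CD8 T cells had a Cd8a or Cd8b1 UMI without a Cd4 UMI, and CD4 T cells the reverse. Of T cells and cDC1s, 88 of 1235 lay within 2-fold of the cycling limit, and 82 of 215 naive-like cells met that gate with the fewest genes allowed. Trac, Trbc1, Trbc2, Ighm and Pigy were not used here.

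Counts were summed per class and library to CPM with exact Poisson intervals, and ratios were given exact conditional binomial intervals. A count of 0 was given the limit of 3 UMIs. PCR copies are collapsed by UMI, and intervals cover counting error only. Shares are from 1 seeded draw of 2000 UMIs per cell, shallower cells left out, with Clopper-Pearson intervals. The calls were tested on simulated data. With 1 library per group no test of genotype was possible. All 5 genes are reported in every class, with the 3 most correlated genes of each and, for the interferon lists in CD8 T cells, monocytes and macrophages, up to 3 genes with the interval farthest from 1. The members and lists were chosen with earlier results of these data known. Alternatives covered cell filters, weighting, thinning, gates, thresholds and, added after seeing the data, clustering resolution and removal of cells with T cell marker UMIs. Values of CD8 and CD4 T cells within single clusters were also chosen after seeing the data.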

Additional observations from a re-analysis of the deposited data

Results flagged for a closer look

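Counting intervals lay on opposite sides of a ratio of 1 in different classes for 2 members, and the difference between classes was not tested. This criterion, with its minimum of 50 CPM in 1 library, was set after the values were seen. The log2 KO to WT ratio of Ly6e was -0.67 in mature DCs and -0.15 in CD4 T cells, but 0.40 in cDC1s, 0.16 in cDC2s, 0.19 in monocytes and 0.19 in macrophages. The log2 ratio of Ly6c2 was -0.15 in CD8 T cells, but 0.78 in CD4 T cells, 1.09 in cDC1s, 2.14 in cDC2s, 0.33 in monocytes and 1.74 in macrophages. In mature DCs, under 50 CPM in both libraries, it was -3.16, from 14 and 1 UMIs. The CD4 value of Ly6e and the CD8 value of Ly6c2 changed sign under some alternatives, and the mature DC value of Ly6e did not under any of the 10 tried.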

How the results depend on the processing

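Alternatives for the 7 classes gave 373 values, of which 314 stayed within the counting interval of the reported value, 59 moved outside it and 0 of those past 1.5-fold changed sign; for subsets, 163 of 188 stayed and 25 moved. The cause of the moves was not tested. No paired analysis was possible because each group is 1 library and the labels give no replicate numbers, and there was no replicate to leave out. All values below are log2 ratios unless stated.

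After thinning to 2000 UMIs, Ly6a was 0.16 (CD8 T cells), 0.44 (CD4 T cells), 1.34 (cDC1s), 0.32 (cDC2s) and 0.94 (macrophages). Ly6c2 was 0.19 in CD8 T cells, 0.66 in cDC1s and 0.47 in cDC2s. Ly6e was 0.22 (CD8 T cells), -0.011 (CD4 T cells), 0.31 in cDC2s and 0.46 in macrophages, and Ly6i was -0.29 in cDC2s and -0.55 in monocytes. As a mean over cells, Ly6a was 0.14 (CD8 T cells), 0.45 (CD4 T cells), 1.15 (cDC1s) and 0.91 (macrophages). Ly6c2 was 0.094 (CD8 T cells), 1.20 (CD4 T cells) and 0.39 in cDC2s, Ly6e was 0.017 in CD4 T cells, 0.28 in cDC2s and 0.40 in macrophages, and Ly6i was -0.88 in cDC2s. With T cells by cluster, Ly6c2 was -0.32 in CD8 and 1.93 in CD4 T cells, and CD4 T cells had Ly6a at 0.54, Ly6c1 at 1.59 and Ly6e at 0.19. Without cycling cells, Ly6c2 was 0.11 in CD8 and 1.10 in CD4 T cells. Without the top cell of each library, Ly6c2 was 1.61 in CD4 T cells, 2.81 in cDC2s and 0.69 in monocytes, Ly6a was -0.33 in mature DCs and Ly6i 1.29 in monocytes. Without cells holding T cell marker UMIs, Ly6a was 1.17 in cDC1s, 2.93 in monocytes and 0.94 in macrophages, Ly6c2 was 1.62 in cDC2s and Ly6i -0.42 in monocytes. With Scrublet calls kept in, Ly6c2 was 1.62 in cDC2s. At resolutions 1 and 1.5, Ly6a was 0.72 and 0.74 in cDC2s and 0.55 in monocytes at both, and Ly6c2 was 0.25 and 0.23 in cDC2s and 0.73 in monocytes at both.

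At 2-fold, 0 members were called in CD4 T cells and in monocytes, 1 each in cDC1s and mature DCs, and 2 in macrophages. Of all genes tested, 33 of 2986 were higher and 24 lower in CD4 T cells, and 63 and 112 of 3091 in monocytes. In cDC1s it was 12 and 21 of 2546, in mature DCs 29 and 39 of 2547, and in macrophages 54 and 84 of 2917. With at least 200 CPM, 1 was called in cDC1s, 1 in mature DCs and 2 in macrophages. Of all genes, 6 of 668 were higher and 14 lower in cDC1s, 22 and 20 of 701 in mature DCs, and 45 and 44 of 797 in macrophages. With at least 10 CPM, 2 were called in cDC2s and 3 in mature DCs (1 higher, 2 lower). All genes gave 304 and 325 of 7177 in cDC2s, and 228 and 265 of 6686 in mature DCs. The calls added at 10 CPM were Ly6c1 in cDC2s (0 and 14 UMIs) and Ly6c2 in mature DCs (14 and 1 UMIs). Both rest on too few UMIs to be read as differences. Without thinning, the share of cDC1s with Ly6c2 differed by 17.6 points. Depth limits Ly6c1 and Ly6i most, since both had under 100 UMIs in every class and library.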
